A study of Mus musculus with 24 samples.

Results

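The 9 genes described here encode the chaperones and proteases that keep mitochondrial proteins folded: Hspd1, Hspe1, Hspa9, Trap1 and Dnaja3 among the chaperones, and Lonp1, Clpp, Clpx and Yme1l1 among the proteases. They were picked by name, with earlier results of these data known, and all 9 were found among the 32728 genes listed. RNA was sequenced from 24 libraries of cultured mouse neurons and astrocytes, 3 in each of 8 groups, taken from mice with loxP sites in both copies of Eif2ak3 (called Perk in the study). Perk KO cells were infected in culture with a lentivirus carrying active Cre recombinase and WT cells with one carrying an inactive form, so that every group is floxed and virus-treated. The sources used here give neither the promoter driving Cre nor the share of cells infected. Tunicamycin (TM), which blocks N-linked glycosylation and so loads the endoplasmic reticulum (ER) with unfolded proteins, was added at 5 µg/mL on day in vitro 14 and left for 24 hours, while control cultures got DMSO alone. The design text gives this time as a range that ends at 24 hours. The groups were Perk KO neurons with TM, Perk KO neurons with DMSO, WT neurons with TM, WT neurons with DMSO, and the same 4 groups of astrocytes. Neither the age nor the sex of the animals is given.

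Most mitochondrial proteins are made in the cytosol, threaded through the TOM and TIM complexes, and folded inside. Hspa9 (mitochondrial Hsp70, or mortalin) pulls them in and works with the J-domain protein Dnaja3; the barrel-shaped chaperonin Hspd1 (HSP60) and its lid Hspe1 (HSP10) then fold many of them, and Trap1 is the HSP90 of mitochondria. Damaged matrix proteins are cut by Lonp1 and by the pair of the unfoldase Clpx and the peptidase Clpp, while Yme1l1 works on the outer face of the inner membrane. In mammals, expression of such genes under mitochondrial stress has been tied to the transcription factors ATF5, ATF4 and CHOP (Ddit3), and PERK raises ATF4 translation by phosphorylating the translation factor eIF2. The Hspa9 gene lies on chromosome 18 (GRCm38, positions 34937414 to 34954357, minus strand).

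Hspd1 and Hspe1 lie head to head on chromosome 1 (GRCm38). Hspd1 spans positions 55077835 to 55088243 on the minus strand and Hspe1 positions 55088132 to 55091307 on the plus strand, so that the gene models overlap by 112 bases. The kit did not mark the strand, and both genes have processed pseudogenes, so how their reads were divided is uncertain. Clpp (chromosome 17, positions 56990264 to 56996371), Lonp1 (chromosome 17, positions 56614301 to 56626903), Clpx (chromosome 9, positions 65294260 to 65330658) and Yme1l1 (chromosome 2, positions 23156369 to 23199260) lie elsewhere. Both Trap1 (positions 4039971 to 4077827) and Dnaja3 (positions 4639989 to 4707695) are on chromosome 16. All 9 are protein-coding.

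Start-site windows of 300 bases (250 before and 50 after the start, RefSeq, GRCm38.p6) were at hand for 8 of the 9 genes, in 9 windows since Hspd1 has 2 starts; that of Hspa9 was not used here. They were searched on both strands for 5 motifs. The core of the heat shock element, GAANNTTC, was in the Hspe1 window, at -84 to -77 from the start, and in the window of the second Hspd1 start, at -139 to -132; these windows overlap by 285 bases as reverse complements, so it is 1 site seen from both sides. The cAMP response element TGACGTCA was in the Trap1 window, at -47 to -40. GAANNTTC occurs in 7.86% and TGACGTCA in 1.79% of all 32851 windows. The core of the ATF4 and C/EBP site, TGATGNAA (3.97% of windows), the unfolded protein response element TGACGTGG (0.676%) and the ER stress response element (CCAAT and, after a gap of 9 bases, CCACG; 0.119%) were in 0 of the 9 windows. Printed 5′ to 3′ with a matched motif in capitals are the Hspe1 window (chr1:55087898-55088197, plus strand), which holds the stretch shared with Hspd1, the Trap1 window (chr16:4077761-4078060, minus strand), which alone holds the cAMP response element, and the windows of Lonp1 (chr17:56626854-56627153, minus strand) and Dnaja3 (chr16:4683820-4684119, plus strand), which were among the genes with the largest responses to TM and hold none of the 5 motifs.
Hspe1: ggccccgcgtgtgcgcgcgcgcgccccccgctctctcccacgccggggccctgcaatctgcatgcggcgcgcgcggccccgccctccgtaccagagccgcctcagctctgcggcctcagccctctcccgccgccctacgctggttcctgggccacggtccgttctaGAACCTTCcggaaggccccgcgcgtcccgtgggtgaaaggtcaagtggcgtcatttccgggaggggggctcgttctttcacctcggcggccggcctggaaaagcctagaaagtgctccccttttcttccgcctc
Trap1: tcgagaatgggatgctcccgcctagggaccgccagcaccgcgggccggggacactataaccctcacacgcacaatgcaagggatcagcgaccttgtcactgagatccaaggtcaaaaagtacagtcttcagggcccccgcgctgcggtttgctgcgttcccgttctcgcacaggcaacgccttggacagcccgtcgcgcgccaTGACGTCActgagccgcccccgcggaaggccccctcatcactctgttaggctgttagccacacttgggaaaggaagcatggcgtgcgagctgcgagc
Lonp1: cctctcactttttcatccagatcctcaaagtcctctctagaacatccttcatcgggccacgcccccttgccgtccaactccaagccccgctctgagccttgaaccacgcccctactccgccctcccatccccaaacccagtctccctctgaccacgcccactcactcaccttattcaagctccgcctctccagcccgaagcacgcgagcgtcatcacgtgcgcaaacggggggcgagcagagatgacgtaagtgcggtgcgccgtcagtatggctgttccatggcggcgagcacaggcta
Dnaja3: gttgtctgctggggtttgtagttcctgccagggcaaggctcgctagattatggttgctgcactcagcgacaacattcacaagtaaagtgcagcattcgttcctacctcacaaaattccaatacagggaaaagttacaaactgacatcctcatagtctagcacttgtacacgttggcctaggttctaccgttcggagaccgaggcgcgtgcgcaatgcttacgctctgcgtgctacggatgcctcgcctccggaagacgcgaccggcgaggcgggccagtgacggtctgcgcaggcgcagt

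Library depth was 16 to 25.9 M counts, and the 9 genes had between 613 (Yme1l1) and 56743 (Hspa9) counts in a library, so none was near the detection limit. The targeted gene Eif2ak3 was lower in Perk KO than in WT cells in all 4 conditions, with log2 differences of -3.44 and -2.73 in TM-treated and control neurons and of -2.66 and -1.94 in TM-treated and control astrocytes; the counts cover the whole gene and do not resolve the deleted exons. All 15 neuron markers were listed, and their summed level (CPM, the depth-normalised read count) was 8619 to 9261 in control WT neurons, against 366 to 395 in control WT astrocytes. The neuron cultures also held astrocyte RNA: the 15 astrocyte markers summed to 3967 to 4312 CPM in the control neurons of WT genotype and to 3401 to 5214 CPM in WT control astrocytes, where Gjb6 was at 0. In bulk samples, fewer cells of a type and less RNA per cell cannot be told apart. Titles name the 3 libraries of a group biological replicates, but separate cultures or animals are not mentioned, and a p-value therefore reflects library-to-library spread that may be technical. CPM were normalised within each cell type, so the marker sums above set neurons beside astrocytes only roughly. CPM of the 9 genes are not compared between the cell types. Changes are given as log2 fold change ± SE, with 3 libraries on each side, tested with edgeR's quasi-likelihood test and adjusted over all genes. A gene is called changed at an adjusted p under 0.05.

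Per kilobase of gene length, the scale on which genes can be compared, Hspa9 and Hspd1 were at the top in each of the 8 groups and Clpx and Yme1l1 at the bottom. In TM-treated WT neurons Hspa9 led with 345 ± 11.5 CPM per kb (SD, n = 3), followed by Hspd1 (134 ± 3.7) and Lonp1 (133 ± 6.34), whose libraries overlapped. In control WT neurons Hspd1 (131 ± 12.1 CPM per kb) and Hspa9 (126 ± 4) overlapped, and Hspe1 (66 ± 10.3), Clpp (58.1 ± 10.6), Lonp1 (46.8 ± 5.87) and Trap1 (42.4 ± 1.38) each overlapped with the next. Dnaja3 (26.3 ± 2.14), Clpx (10.3 ± 1.11) and Yme1l1 (5.99 ± 2.49) followed without overlap. In TM-treated WT astrocytes the order was Hspa9 (742 ± 63.9 CPM per kb), Hspd1 (319 ± 13), Lonp1 (244 ± 10), Hspe1 (128 ± 18.3), Dnaja3 (65.9 ± 2.51), Clpp (65.2 ± 1.78), Trap1 (52.5 ± 2.55), Yme1l1 (21.8 ± 0.755) and Clpx (16.2 ± 0.751), with Dnaja3 and Clpp overlapping. In control WT astrocytes Hspa9 was at 314 ± 61.5, Hspd1 at 143 ± 12.7, Lonp1 at 89.3 ± 13.4 and Hspe1 at 76.8 ± 7.33 CPM per kb. In Perk KO cells Hspa9 was at 184 ± 7.67 and 118 ± 2.66 CPM per kb in TM-treated and control neurons and at 189 ± 25.4 and 136 ± 23.1 in TM-treated and control astrocytes, against Hspd1 at 119 ± 4.84, 125 ± 1.25, 113 ± 3.77 and 101 ± 9.51 in the same 4 groups.

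The 9 transcripts together took a larger part of the TM libraries than of the control libraries. Their sum was 2756 ± 104 CPM in TM-treated and 1443 ± 51.4 CPM in control neurons of WT genotype, and 1763 ± 84.5 CPM in TM-treated and 1391 ± 35.2 CPM in control neurons of Perk KO genotype. In astrocytes it was 5372 ± 220 CPM in TM-treated and 2426 ± 323 CPM in control WT cells, and 1774 ± 129 CPM in TM-treated and 1442 ± 157 CPM in control Perk KO cells (SD, n = 3 each). The libraries of TM-treated and control cells did not overlap in any of these 4 pairs.

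**Figure D1:**
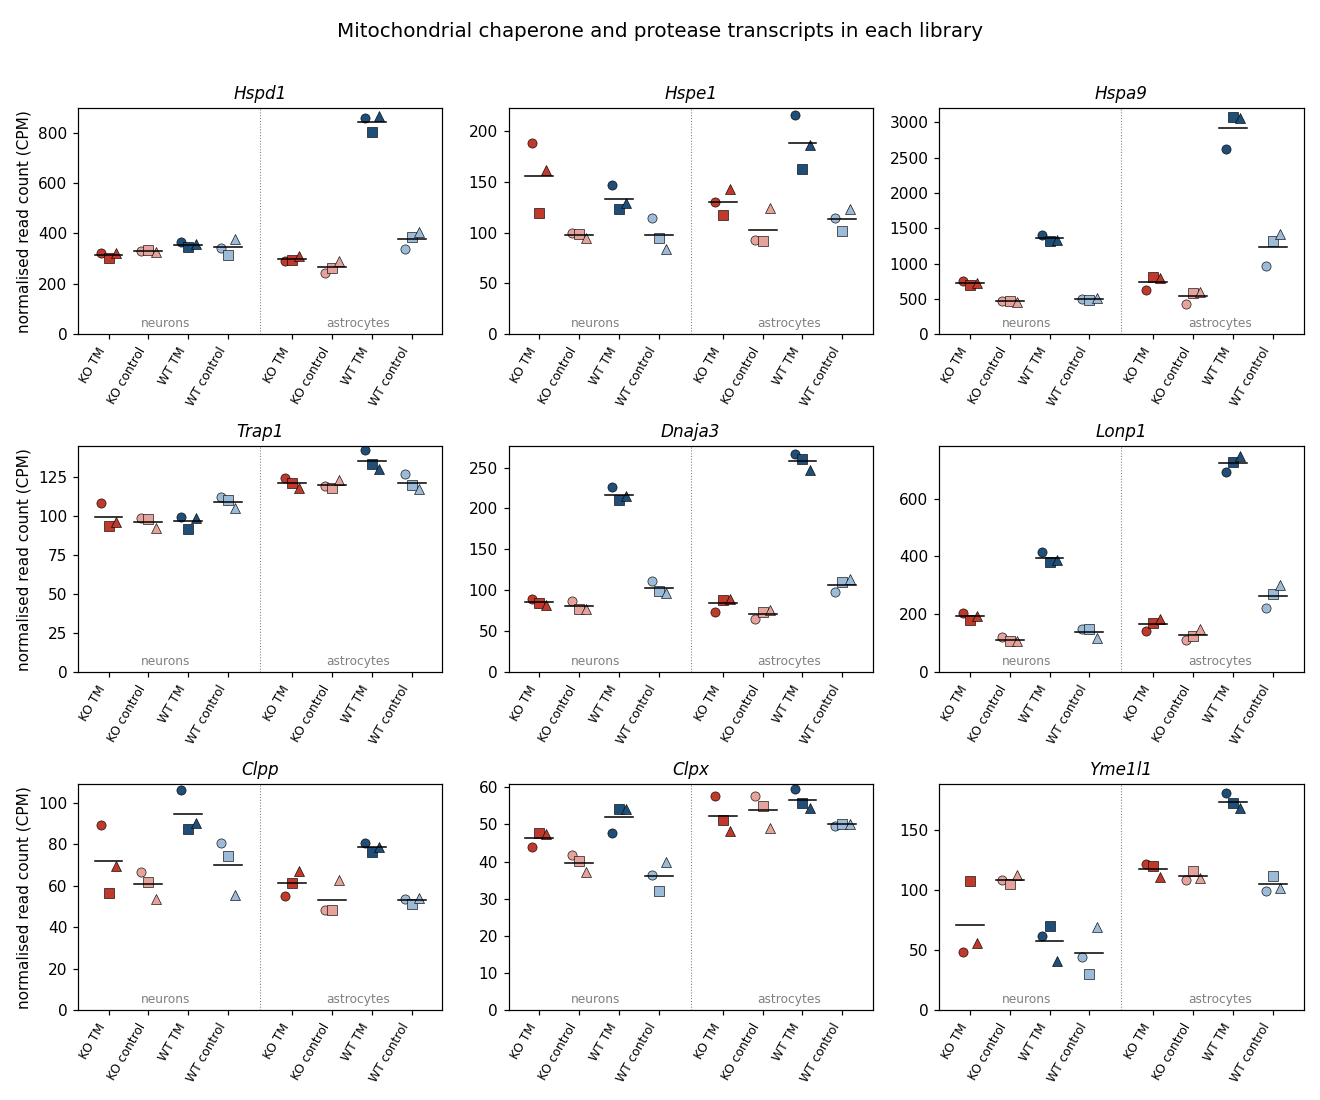
Normalised read count (CPM, linear axis from 0) of the 9 genes in each of the 24 libraries, with Perk KO left of WT and TM left of control within each cell type; circles, squares and triangles are replicates 1, 2 and 3 and the line is their mean. Hspd1 stands at 803 to 866 CPM in TM-treated WT astrocytes and at 242 to 406 CPM in the other astrocyte groups, while Yme1l1 spreads from 49 to 108 CPM among the TM-treated Perk KO neurons.

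The first comparison was of TM-treated and control cultures of WT neurons, where Perk was intact. Transcripts of Hspa9, Lonp1 and Dnaja3 rose between 2.06-fold and 2.78-fold, and Clpx, Hspe1 and Clpp rose by smaller steps, while Hspd1, the partner of Hspe1, was level. Of the 9 genes 6 rose and 0 fell, where 27% of the 15546 genes tested rose and 24.8% fell. The median log2 change was 0.41 over the 9 genes and 0.04 over all genes tested.

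Among the chaperones, Hspa9 read 1407, 1326 and 1331 CPM in TM-treated and 493, 480 and 511 CPM in control WT neurons. The groups were far apart, with a log2 change of 1.42 ± 0.075 (adjusted p = 2.3e-06). Dnaja3, its J-domain partner, had 226, 210 and 215 CPM with TM and 112, 99.4 and 96.7 CPM in controls (1.04 ± 0.086, adjusted p = 2.38e-05), again without overlap. Hspd1 had 364, 345 and 356 CPM in TM-treated and 342, 316 and 379 CPM in control WT neurons. These overlapped, and the log2 change was 0.01 ± 0.085 (adjusted p = 0.963). Hspe1 had 147, 123 and 129 CPM with TM and 114, 94.9 and 83.5 CPM in controls, a rise of 0.41 ± 0.12 (adjusted p = 0.0215) that was not called with a correction for transcript GC content (0.30, adjusted p = 0.0898), without control replicate 2 (adjusted p = 0.0721) or without TM replicate 1 (0.0818). Trap1 had 99.5, 91.8 and 98.7 CPM in TM-treated and 112, 110 and 105 CPM in control WT neurons. Its groups did not overlap, and its log2 change of -0.21 ± 0.079 had an adjusted p of 0.0518; it was called lower with DESeq2's size factors (0.0372), with the GC correction (0.0257) and without control replicate 3 (0.0116).

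Among the proteases of WT neurons, Lonp1 had 417, 382 and 388 CPM with TM and 149, 149 and 119 CPM in controls. Its rise of 1.48 ± 0.11 (adjusted p = 1.15e-05) was of the size of that of Hspa9, and the groups stood well apart. Clpx had 47.8, 54.1 and 54.2 CPM in TM-treated and 36.5, 32.1 and 39.8 CPM in control WT neurons (0.49 ± 0.11, adjusted p = 0.00617). Clpp, the peptidase that Clpx feeds, had 106, 87.3 and 90.4 CPM with TM and 80.5, 74.1 and 55.7 CPM in controls. Its rise of 0.39 ± 0.14 (adjusted p = 0.0452) was at the edge: it was not called with DESeq2 (0.0593), with DESeq2's size factors (0.0718), in the fit of all 12 neuron libraries (0.0526), or without control replicate 2 (0.0754) or 3 (0.0913) or TM replicate 1 (0.149), 2 (0.057) or 3 (0.0812). Yme1l1 ranged from 41.1 to 70.5 CPM with TM and from 30.1 to 69.5 CPM in controls, and its log2 change of 0.24 ± 0.29 (adjusted p = 0.523) was smaller than its error.

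In Perk KO neurons TM raised 3 of the 9 genes, Lonp1, Hspa9 and Hspe1, and lowered 0, where 13.1% of genes tested rose and 10.8% fell. The median log2 change was 0.22 over the 9 genes and 0.02 over all genes tested. Hspa9 had 756, 695 and 725 CPM in TM-treated and 473, 469 and 453 CPM in control Perk KO neurons, a rise of 0.64 ± 0.09 (adjusted p = 0.00249). Lonp1 had 206, 179 and 195 CPM with TM and 121, 107 and 109 CPM in controls (0.78 ± 0.098, adjusted p = 0.00162). Neither gene's groups overlapped. Dnaja3 had 89.6, 84.9 and 81.7 CPM with TM and 87.3, 77.3 and 77.5 CPM in controls, which overlapped (0.08 ± 0.095, adjusted p = 0.582). Hspe1 had 188, 119 and 162 CPM in TM-treated and 99.7, 98.2 and 95.2 CPM in control Perk KO neurons. Its rise of 0.68 ± 0.16 (adjusted p = 0.0191) was not called without control replicate 1 (0.07), 2 (0.0684) or 3 (0.0772) or TM replicate 3 (0.076). Hspd1, with 324, 301 and 322 CPM with TM and 331, 333 and 327 CPM in controls, did not overlap but changed by less than its error (-0.07 ± 0.084). Trap1 (0.04), Clpp (0.24) and Clpx (0.22) were not called either.

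Yme1l1 in Perk KO neurons rested on 1 library. It had 49, 108 and 56.1 CPM in TM-treated and 109, 105 and 113 CPM in Perk KO controls. TM replicate 2 lay among the controls and the other TM libraries well below them. The log2 change was -0.62 ± 0.26 (adjusted p = 0.127). Without TM replicate 2 it was -1.06 (adjusted p = 0.000116), with the GC correction -0.38 (adjusted p = 0.0335), and with no filter on low counts -0.62 (adjusted p = 0.0423). The longest Yme1l1 transcript has a GC content of 38.0%, the lowest of the 9 genes, which run up to 57.8% (Clpp).

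In WT astrocytes TM raised 7 of the 9 genes and lowered 0, where 25% of the 14907 genes tested rose and 27.7% fell. Here Hspd1 rose 2.21-fold, and its lid Hspe1 and Yme1l1 rose 1.64-fold each. Lonp1, Dnaja3 and Hspa9 rose between 2.33-fold and 2.7-fold, and Trap1 and Clpx were not called. The median log2 change was 0.72 over the 9 genes and -0.01 over all genes tested. All 7 calls held with each library left out and under each other setting tried.

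Hspd1 had 858, 803 and 866 CPM in TM-treated and 340, 385 and 406 CPM in control WT astrocytes, a rise of 1.14 ± 0.11 (adjusted p = 0.000146). Hspe1 had 216, 163 and 186 CPM with TM and 114, 102 and 123 CPM in controls (0.72 ± 0.14, adjusted p = 0.00344). The groups stood apart for both partners of the chaperonin. Hspa9 had 2627, 3069 and 3055 CPM in TM-treated and 963, 1318 and 1424 CPM in control WT astrocytes (1.22 ± 0.16, adjusted p = 0.000635). Dnaja3 had 266, 260 and 247 CPM with TM and 98.5, 110 and 114 CPM in controls (1.25 ± 0.1, adjusted p = 6.94e-05). Neither overlapped between groups. Trap1 had 142, 133 and 130 CPM with TM and 127, 120 and 117 CPM in controls, which did not overlap either, but its log2 change of 0.13 ± 0.097 was not called (adjusted p = 0.275).

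Among the proteases of WT astrocytes, Lonp1 had 691, 728 and 749 CPM with TM and 222, 271 and 301 CPM in controls (1.43 ± 0.13, adjusted p = 0.000111). Clpp had 80.7, 76.5 and 78.9 CPM in TM-treated and 53.4, 51.1 and 54.3 CPM in control WT astrocytes (0.55 ± 0.092, adjusted p = 0.00172). Its replicates were close and the groups far apart for so small a step. Yme1l1 had 181, 173 and 169 CPM with TM and 99.6, 112 and 102 CPM in controls (0.72 ± 0.095, adjusted p = 0.000612). Clpx had 59.4, 55.7 and 54.4 CPM in TM-treated and 49.5, 50.2 and 50.2 CPM in control WT astrocytes, which did not overlap, with a log2 change of 0.16 ± 0.093 that missed the threshold (adjusted p = 0.184).

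In Perk KO astrocytes 0 of the 9 genes were called with TM by edgeR, where 5.55% of genes tested rose and 4.6% fell. Hspa9, with 629, 811 and 793 CPM in TM-treated and 430, 579 and 595 CPM in control cells, was nearest (0.47 ± 0.15, adjusted p = 0.0773), and its groups did not overlap. At an unadjusted p under 0.05, Hspa9 (0.00957), Lonp1 (0.0251) and Hspe1 (0.0292) were higher, and DESeq2 called 1 gene, Hspa9 (adjusted p = 0.0201). Hspa9 was also called with no filter on low counts (0.0246) and without TM replicate 1 (0.59, 0.0399), and Hspe1 without control replicate 3 (0.49, 0.0285). Trap1 (0.01), Clpx (-0.05) and Yme1l1 (0.08) overlapped between groups. Replicate numbers paired the astrocyte libraries, and with the replicate number as a block 5 genes were called higher: Hspa9 (0.48, adjusted p = 3.61e-05), Lonp1 (0.36, 0.000472), Hspe1 (0.35, 0.00148), Dnaja3 (0.23, 0.0147) and Clpp (0.20, 0.0489). The block raised calls over all genes too: 4288 were called with it (51.1% of them higher), against 1539 without it (54.6% higher). Lonp1 had 144, 170 and 184 CPM with TM and 110, 126 and 151 CPM in controls, and Hspd1 289, 294 and 309 CPM with TM and 242, 262 and 292 CPM in controls. Both overlapped between groups, although each TM library was above the control library of its number. The median log2 change over the 9 genes was 0.20, beside 0.00 over all genes tested.

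**Figure D2:**
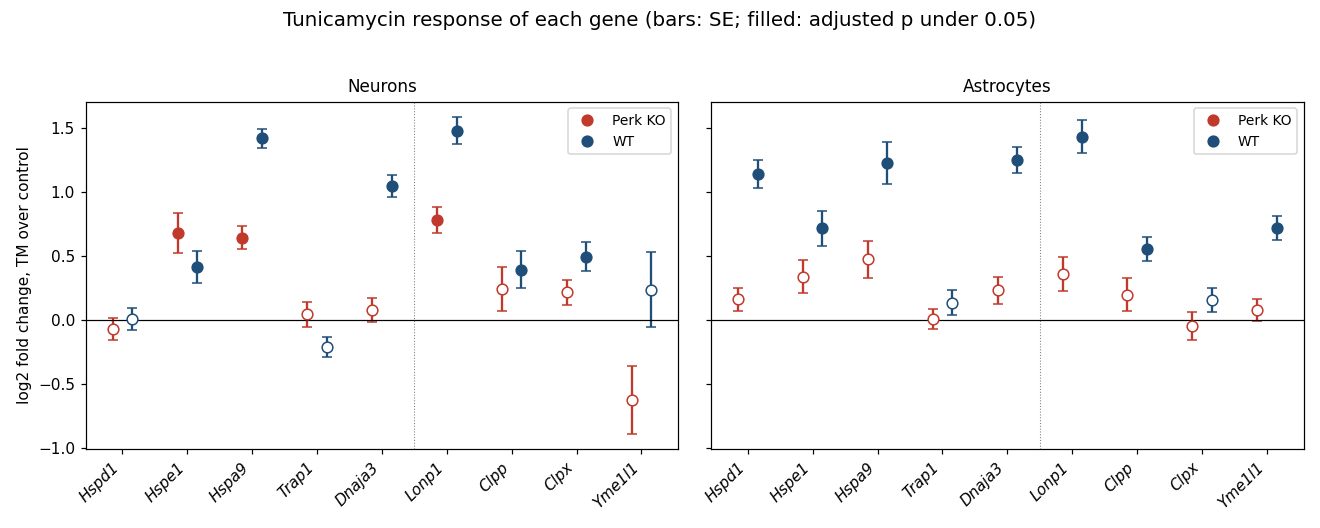
Log2 fold change of TM over control for the 9 genes in neurons (left) and astrocytes (right), Perk KO in red left of WT in blue; bars are standard errors, filled points passed an adjusted p of 0.05, and the dotted line parts chaperones from proteases. Hspd1 is at 0.01 in WT neurons and at 1.14 in WT astrocytes, and in Perk KO astrocytes no point is filled.

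Cell type markers moved with TM too. In WT cells the astrocyte markers summed to 1374 to 1522 CPM in TM-treated and 3967 to 4312 CPM in control neurons, and to 820 to 946 CPM in TM-treated and 3401 to 5214 CPM in control astrocytes. In Perk KO cells the sums were 4616 to 5914 CPM in TM-treated and 5233 to 5453 CPM in control neurons, and 3496 to 4421 CPM in TM-treated and 5085 to 6419 CPM in control astrocytes. The neuron markers summed to 4481 to 4733 CPM in TM-treated and 8619 to 9261 CPM in control WT neurons, and to 4619 to 5102 CPM in TM-treated and 7343 to 8045 CPM in control Perk KO neurons. The 12 markers of the oligodendrocyte lineage summed to 124 to 170 CPM in TM-treated and 476 to 537 CPM in control WT neurons, and to 102 to 106 CPM in TM-treated and 402 to 425 CPM in control WT astrocytes, with Sox10 and Mag at 0 in the TM-treated astrocytes. The 10 markers of fibroblasts and mural cells summed to 379 to 496 CPM in TM-treated and 1358 to 1531 CPM in control WT astrocytes, and the 12 microglia markers to 6.6 to 39.6 CPM and 34.2 to 176 CPM in the same groups. The part of these shifts in the changes of the 9 genes was not tested.

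Whether the TM response depended on Perk was asked by the genotype by TM interaction, in which a negative value means a smaller rise or larger fall in Perk KO cells. In neurons the response was smaller in Perk KO cells for 3 of the 9 genes, where the interaction was positive for 14.5% and negative for 15.4% of genes tested. These were Dnaja3 (-0.99 ± 0.12, adjusted p = 9.02e-05), Hspa9 (-0.81 ± 0.098, 0.000116) and Lonp1 (-0.73 ± 0.14, 0.00227). For Hspe1 (0.23 ± 0.21, adjusted p = 0.442), Clpp (-0.19 ± 0.24, 0.591) and Clpx (-0.31 ± 0.14, 0.121) a difference was not shown, nor was it for Hspd1 (-0.11 ± 0.11, 0.478) and Trap1 (0.22 ± 0.11, 0.147). Yme1l1 (-0.89 ± 0.46, adjusted p = 0.164) was called without TM-treated Perk KO replicate 2 (-1.30, 0.0174) and without WT control replicate 3 (-1.25, 0.0413).

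In astrocytes the interaction was negative for 5 of the 9 genes, where it was positive for 19.8% and negative for 14.6% of genes tested. The genes were Lonp1 (-1.09 ± 0.2, adjusted p = 0.00152), Dnaja3 (-1.03 ± 0.14, 0.000228), Hspd1 (-0.997 ± 0.14, 0.000234), Hspa9 (-0.76 ± 0.24, 0.026) and Yme1l1 (-0.66 ± 0.11, 0.00102). Hspa9 was not called without WT control replicate 1 (0.0521), WT TM replicate 2 (0.0538) or 3 (0.0504), Perk KO control replicate 2 (0.0612) or 3 (0.0616), or Perk KO TM replicate 1 (0.0661). With the replicate block Hspe1 (-0.39, adjusted p = 0.03) and Clpp (-0.37, 0.0264) were called as well, and Clpp was called with the GC correction (-0.54, 0.00705). Trap1 (-0.14 ± 0.11, adjusted p = 0.319) and Clpx (-0.22 ± 0.13, 0.215) were not called. The TM responses and the genotype differences share libraries, so they are not independent of each other or of this interaction.

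The level under TM was lower in Perk KO than in WT neurons for 3 of the 9 genes and higher for 0, where 20.7% of genes tested were higher and 19.4% lower. These were Dnaja3 (0.411-fold, log2 difference -1.28 ± 0.094, adjusted p = 4.96e-05), Lonp1 (-0.97 ± 0.1, 0.000255) and Hspa9 (-0.84 ± 0.11, 0.000586). Hspd1, at 301 to 324 CPM in Perk KO and 345 to 364 CPM in WT neurons with TM, did not overlap but was not called (-0.11 ± 0.095, adjusted p = 0.383). The replicate numbers paired the libraries in this comparison, and with the block Clpp was called lower (-0.35, adjusted p = 0.0304). Without Perk KO replicate 1 Clpp was called lower as well (-0.53, 0.0123), and without Perk KO replicate 2 Hspe1 was called higher (0.48, 0.01). The median log2 difference was -0.11 over the 9 genes and 0.02 over all genes tested. The libraries of TM-treated Perk KO and WT neurons overlapped for Hspe1, Trap1, Clpp and Yme1l1, whose log2 differences were 0.30, 0.10, -0.33 and 0.35, but not for Clpx (-0.11, adjusted p = 0.431).

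Without stress, 1 of the 9 genes was called higher and 1 lower in Perk KO than in WT neurons, near the shares over all genes. Dnaja3 was lower in control Perk KO neurons (-0.36 ± 0.095, adjusted p = 0.0324) and Yme1l1 higher (1.18 ± 0.25, 0.0157), where 12.2% of genes tested were higher and 9.16% lower. Yme1l1 had 109, 105 and 113 CPM in control Perk KO and 44.4, 30.1 and 69.5 CPM in control WT neurons, so the WT libraries were the variable ones. It was not called without WT replicate 1 (adjusted p = 0.0629) or Perk KO replicate 2 (0.0586) or 3 (0.0662). Dnaja3 was not called with the GC correction (-0.24, adjusted p = 0.0918) or without WT replicate 1 (0.111) or 2 (0.068) or Perk KO replicate 2 (0.125) or 3 (0.119). The replicate numbers paired these libraries too, and with the block Lonp1 was called lower (-0.31, adjusted p = 0.0314), as it was with no filter on low counts (-0.33, 0.0367). Without WT replicate 3 Lonp1 (-0.37, 0.00464) and Clpp (-0.32, 0.0363) were called lower. Hspd1 (-0.07), Hspe1 (-0.0022), Hspa9 (-0.10), Trap1 (-0.19) and Clpx (0.13) were not called, and the libraries of Hspa9 and Trap1 did not overlap between genotypes.

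In TM-treated astrocytes the genotypes differed in 7 of the 9 genes, all lower in Perk KO cells, where 32.1% of genes tested were higher and 31.2% lower. Lonp1 was at 0.233-fold and Hspa9 at 0.259-fold of the WT level, with log2 differences of -2.10 ± 0.12 (adjusted p = 5.43e-06) and -1.95 ± 0.14 (1.33e-05). Dnaja3 (-1.59 ± 0.11, 1.08e-05) and Hspd1 (-1.48 ± 0.098, 9.73e-06) followed. Yme1l1 (-0.54 ± 0.093, adjusted p = 0.00111), Hspe1 (-0.51 ± 0.13, 0.00857) and Clpp (-0.34 ± 0.1, 0.0191) differed less. Clpp was not called without Perk KO replicate 1 (0.0834) or 2 (0.0563). Trap1, at 118 to 124 CPM in Perk KO and 130 to 142 CPM in WT astrocytes, and Clpx were not called (-0.14 and -0.09, adjusted p = 0.212 and 0.496). The median log2 difference was -0.54 over the 9 genes and 0.01 over all genes tested.

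Control astrocytes already differed by genotype: 4 of the 9 genes were lower in Perk KO cells and 0 higher, where 4.71% of genes tested were higher and 10.2% lower. Hspa9 had 430, 579 and 595 CPM in Perk KO and 963, 1318 and 1424 CPM in WT control astrocytes (-1.21 ± 0.18, adjusted p = 0.0102). Lonp1 had 110, 126 and 151 CPM in Perk KO and 222, 271 and 301 CPM in WT cells (-1.04 ± 0.15, 0.00994). For both, each Perk KO library lay below each WT library. Dnaja3 (-0.59 ± 0.1, adjusted p = 0.0139) and Hspd1 (-0.51 ± 0.11, 0.026) were lower by smaller steps. Some calls rested on single libraries: without WT replicate 2 the adjusted p was 0.0565 for both Hspa9 and Lonp1, 0.0703 for Dnaja3 and 0.108 for Hspd1, and without it the genes called over all genes tested fell to 50, against 2260 with all 6 libraries. Without WT replicate 1 there were 4138, and all 4 genes were still called. Hspd1 was also not called without WT replicate 3 (0.0945) or Perk KO replicate 1 (0.0849) or 2 (0.0971), and Dnaja3 without WT replicate 3 (0.0551) or Perk KO replicate 2 (0.0557). With the replicate block all 4 were called. Over all genes 5730 were called with it, 48% of them higher, against 2260, 31.7% of them higher, without it. Hspe1, Trap1, Clpp, Clpx and Yme1l1 overlapped between the genotypes, with log2 differences of -0.14 to 0.11.

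**Figure D3:**
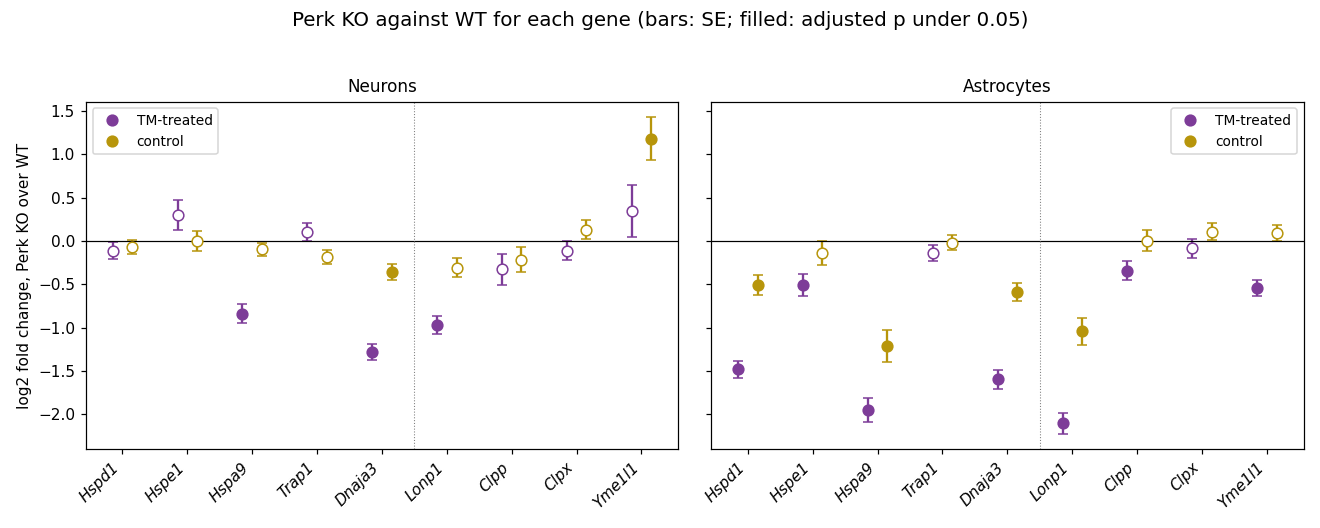
Log2 fold change of Perk KO over WT for the 9 genes in neurons (left) and astrocytes (right), TM-treated cells in purple left of controls in yellow; bars are standard errors and filled points passed an adjusted p of 0.05. Lonp1 and Hspa9 are at -2.10 and -1.95 in TM-treated astrocytes and at -1.04 and -1.21 in control astrocytes, while Yme1l1 in control neurons is at 1.18.

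Neurons and astrocytes were compared in WT cells, with all levels fitted on 1 scale. In controls 1 gene was higher in neurons and 4 lower, where 35.8% of genes tested were higher and 35.2% lower. Clpp was higher in neurons (0.56 ± 0.15, adjusted p = 0.00791), and Hspa9 (-1.17 ± 0.15, 0.000116), Yme1l1 (-0.97 ± 0.25, 0.00741), Lonp1 (-0.78 ± 0.15, 0.00119) and Clpx (-0.31 ± 0.12, 0.0415) were lower. With the GC correction Yme1l1 was at -0.15 (adjusted p = 0.295) and Clpx at -0.15 (0.198). Clpx was also not called with no filter (0.0741), DESeq2 (0.0537) or its size factors (0.0589), or without neuron replicate 1 (0.121) or 2 (0.193) or astrocyte replicate 1 (0.0525), 2 (0.0967) or 3 (0.0792). Hspd1 (0.03 ± 0.12, adjusted p = 0.832), Hspe1 (-0.06 ± 0.14), Trap1 (0.00 ± 0.097) and Dnaja3 (0.09 ± 0.11) were not called. Genes of mitochondrial mass, such as those of the Krebs cycle and the outer membrane channel, were higher in neurons in 16 of 19 and lower in 1, and 11 of 13 mitochondrially encoded genes were higher.

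With TM, 1 of the 9 genes was higher and 6 lower in WT neurons than in WT astrocytes, where 36.6% of genes tested were higher and 33.9% lower. Without GC correction, the largest of these differences were in Yme1l1 (-1.54 ± 0.18, adjusted p = 7.43e-05), Hspd1 (-1.19 ± 0.088, 4.6e-06) and Hspa9 (-1.06 ± 0.11, 2.91e-05), followed by Lonp1 (-0.82 ± 0.092, 5.8e-05), Hspe1 (-0.45 ± 0.12, 0.00966) and Trap1 (-0.43 ± 0.09, 0.00242). Yme1l1 has the lowest GC content of the 9 genes (38.0%), and in controls the GC correction took its difference from -0.97 to -0.15. Its rank here is that of the uncorrected fit only. Clpp was higher (0.31 ± 0.1, adjusted p = 0.0241) but not with the GC correction (0.02, 0.854), with no filter (0.0545), in the fit of all 24 libraries (0.252), or without neuron replicate 1 (0.119) or astrocyte replicate 2 (0.0814). Dnaja3 (-0.20 ± 0.084, adjusted p = 0.0624) was called lower with the GC correction (-0.42, 0.00124), by DESeq2 (0.0493), in the fit of all 24 libraries (-0.32, 0.00397) and without astrocyte replicate 1 (0.0487). Clpx was not called (-0.07 ± 0.1, adjusted p = 0.579).

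Whether the TM response itself differed between the cell types was tested in the cell type by TM interaction, where a negative value means a smaller rise or larger fall in neurons. In WT cells it was negative for Hspd1 (-1.31 ± 0.13, adjusted p = 5.44e-05), Trap1 (-0.52 ± 0.12, 0.00965) and Dnaja3 (-0.38 ± 0.13, 0.0486) and positive for 0 of the 9 genes, where it was positive for 12.4% and negative for 12.5% of genes tested. Hspd1 was called under every setting and with each library left out. Dnaja3 was not called with DESeq2's size factors (0.0705), with no filter (0.542), or without any 1 of 10 of the 12 libraries (0.0508 to 0.251; it was called without control neuron replicate 3 and without control astrocyte replicate 3), and Trap1 was not called with no filter (-0.37, adjusted p = 0.213). Hspe1 (-0.58, 0.0421) and Clpp (-0.48, 0.0251) were called without control neuron replicate 3, and Yme1l1 without control neuron replicate 2 (-0.89, 0.0417) and with the GC correction (-0.55, 0.0222). Lonp1 (-0.13 ± 0.17, adjusted p = 0.622), Hspa9 (0.02 ± 0.18, 0.949) and Clpx (0.16 ± 0.15, 0.462) were not called.

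In Perk KO cells the cell type by TM interaction was called for 0 of the 9 genes by edgeR, where it was positive for 6.9% and negative for 4.78% of genes tested; with the GC correction 49% of the calls over all genes were positive, against 59.1% without it. Before adjustment 2 of the 9 genes passed 0.05 in edgeR, Lonp1 (0.42, adjusted p = 0.138) and Yme1l1 (-0.69, adjusted p = 0.152), and DESeq2 also called 0. The values were -0.23 for Hspd1, 0.34 for Hspe1, 0.17 for Hspa9, 0.04 for Trap1, -0.15 for Dnaja3, 0.05 for Clpp and 0.27 for Clpx. Yme1l1 was called without TM-treated Perk KO neuron replicate 2 (-1.11, adjusted p = 0.000195) with the GC correction (-0.47, 0.0318) and with no filter (-0.75, 0.0319). In the 3-way interaction of cell type, genotype and TM, Hspd1 was positive (1.02 ± 0.17, adjusted p = 0.000953), where 2.08% of genes tested were positive and 3.43% negative; positive calls were 51.1% of all calls with the GC correction, against 37.8% without. The Hspd1 value sets a TM response of -0.07 in Perk KO and 0.01 in WT neurons against 0.16 in Perk KO and 1.14 in WT astrocytes. Trap1 (0.49 ± 0.15, adjusted p = 0.0519) was called positive with DESeq2 (0.00104), its size factors (0.0286) and the GC correction (0.0205), and without WT control neuron replicate 3 (0.0405), TM-treated Perk KO neuron replicate 2 (0.0353) or WT control astrocyte replicate 1 (0.0497). Hspe1 (0.75 ± 0.31, adjusted p = 0.165) was called without TM-treated Perk KO neuron replicate 2 (0.91, 0.0485). Hspa9 (0.08), Dnaja3 (0.17), Lonp1 (0.49), Clpp (0.32), Clpx (0.04) and Yme1l1 (-0.10) were not called.

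Hspe1 and Hspd1, which act as 1 machine, did not keep a fixed transcript ratio. The ratio of Hspe1 to Hspd1 CPM per kb was 0.721, 0.639 and 0.648 in TM-treated and 0.595, 0.538 and 0.394 in control WT neurons. In Perk KO neurons it was 1.04, 0.712 and 0.903 with TM and 0.539, 0.528 and 0.521 in controls. In both genotypes of neurons the TM libraries were above all controls. In WT astrocytes the order was the other way, with 0.452, 0.363 and 0.385 in TM-treated and 0.602, 0.475 and 0.546 in control cells, again without overlap. In Perk KO astrocytes it was 0.807, 0.716 and 0.83 with TM and 0.685, 0.629 and 0.758 in controls, which overlapped, although each TM library was above the control library of its number. The ratios were not tested, since 3 against 3 libraries cannot give an exact permutation p below 0.1, and shared reads of the overlapping genes and their pseudogenes could move them.

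**Figure D4:**
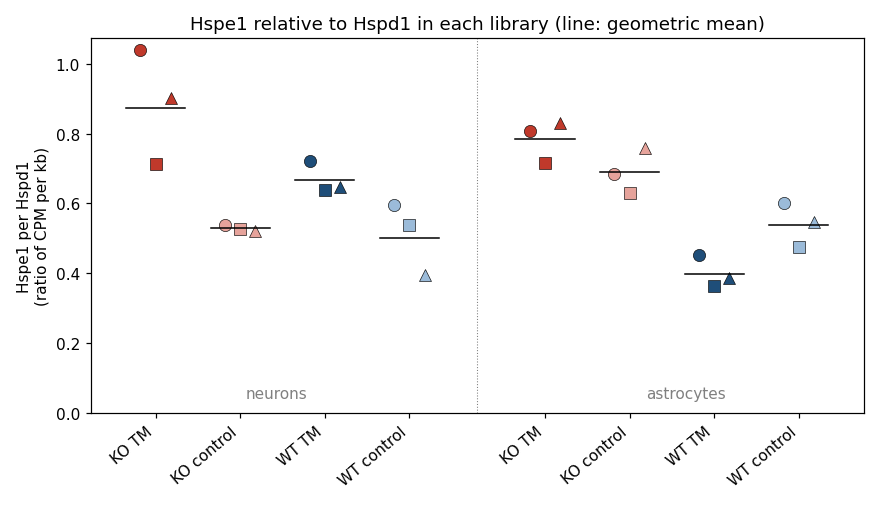
Ratio of Hspe1 to Hspd1 (CPM per kb over CPM per kb, linear axis from 0) in each of the 24 libraries, Perk KO left of WT and TM left of control within each cell type; circles, squares and triangles are replicates 1, 2 and 3 and the line is the geometric mean. The geometric mean is 0.668 in TM-treated and 0.502 in control WT neurons and 0.398 in TM-treated and 0.538 in control WT astrocytes.

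The other partner pair, Clpx and Clpp, showed a ratio of Clpx to Clpp CPM per kb below 1 in all 8 groups. Its geometric mean was 0.191 in TM-treated and 0.18 in control WT neurons, and 0.226 in TM-treated and 0.227 in control Perk KO neurons. In WT astrocytes it was 0.254, 0.252 and 0.238 with TM and 0.32, 0.339 and 0.319 in controls, which did not overlap. In Perk KO astrocytes it was 0.361, 0.287 and 0.249 with TM and 0.413, 0.392 and 0.27 in controls, which overlapped, although each TM library was below the control library of its number.

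Across the 24 libraries, with the mean of each cell type removed, Hspa9, Lonp1 and Dnaja3 ran closely together. The Pearson r of log2 CPM was 0.989 for Hspa9 with Lonp1, 0.955 for Dnaja3 with Lonp1 and 0.937 for Hspa9 with Dnaja3. For Hspd1 with Hspe1 it was 0.611, and for Clpx with Clpp 0.338. These values describe libraries that share the TM and genotype groups. Of the 11442 protein-coding genes compared, the nearest to Hspa9 were Nars (0.994), Taf15 (0.994) and Lars (0.993), and the nearest to Lonp1 were Nars (0.992), Gtpbp2 (0.991) and Aldh18a1 (0.989). Nars and Lars encode aminoacyl-tRNA synthetases, as does Wars, the nearest to Dnaja3 (0.987), which was followed by Pabpc4 (0.987) and Rcl1 (0.984). Hspd1 was nearest to Got1 (0.977), an aspartate aminotransferase, Denr (0.955) and Sbf1 (0.951). Yme1l1 was nearest to Clock (0.979), Zfp148 (0.976) and Appl1 (0.969), and Clpp to Mcrip1 (0.954), Akr1a1 (0.946) and Anapc16 (0.943). The nearest genes were less close for Hspe1 (Serinc3, 0.902), Clpx (Gpr137b, 0.891) and Trap1 (Tmem97, 0.868).

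These chaperones have counterparts in the ER and in the cytosol. Hspa5 (BiP), the Hsp70 of the ER, rose with TM by 2.32 ± 0.13 in Perk KO and 4.30 ± 0.097 in WT neurons and by 2.72 ± 0.15 in Perk KO and 3.57 ± 0.21 in WT astrocytes (log2; edgeR adjusted p at most 0.000151), beside 0.64, 1.42, 0.47 and 1.22 for Hspa9 in the same order. Hsp90b1, the HSP90 of the ER, rose by 1.58, 4.02, 2.47 and 4.17 in that order, where its mitochondrial relative Trap1 was not called. Hspa8, the constitutive Hsp70 of the cytosol, rose in Perk KO neurons (0.85 ± 0.17, adjusted p = 0.00933) and fell in WT neurons (-0.72 ± 0.11, 0.000586), and it was at 0.29 in Perk KO and 0.07 in WT astrocytes, where it was not called. Hsp90ab1, a cytosolic HSP90, fell in WT neurons (-0.28, adjusted p = 0.0284) and was not called in Perk KO neurons (0.26), Perk KO astrocytes (0.09) or WT astrocytes (0.14).

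Atf4, Atf5 and Ddit3, the factors tied to mitochondrial stress, rose with TM in all 4 kinds of culture. Of the 7 stress regulators in the list that includes these factors, 4 rose in Perk KO and 6 in WT neurons, 3 rose in Perk KO and 4 in WT astrocytes, and 0 fell in any. In the same order, 13.1%, 27%, 5.55% and 25% of all genes tested rose and 10.8%, 24.8%, 4.6% and 27.7% fell. The 3 in Perk KO astrocytes were Atf4, Atf5 and Ddit3 themselves. Atf4 rose by 0.96 ± 0.12 in Perk KO and 1.61 ± 0.083 in WT neurons and by 0.97 ± 0.23 in Perk KO and 1.82 ± 0.19 in WT astrocytes. Its interaction of genotype and TM was -0.68 ± 0.14 in neurons (adjusted p = 0.00304) and -0.86 ± 0.34 in astrocytes (0.0647). Control astrocytes without Perk had less Atf4 than WT ones (92, 138 and 158 CPM against 244, 355 and 411 CPM, -1.38 ± 0.24, adjusted p = 0.013). Ddit3 (-1.46 ± 0.27, adjusted p = 0.0158) and Atf5 (-0.71 ± 0.17, 0.0322) were lower in control Perk KO astrocytes too. Without WT replicate 2, calls over all genes in this comparison fell from 2260 to 50. Hspa9 and Lonp1 were lower in the same cells, and a link to these factors was not tested. In control neurons 0 of the 7 regulators were called between genotypes, where 12.2% of genes tested were higher and 9.16% lower. For Ddit3 the interaction of genotype and TM was -1.53 ± 0.19 in neurons (adjusted p = 0.000128) and -1.22 ± 0.39 in astrocytes (0.0305). For Atf5 it was -0.35 ± 0.18 in neurons (adjusted p = 0.17) and -0.02 ± 0.24 in astrocytes (0.959), and a difference in its response was not shown.

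Other genes of mitochondrial quality control were taken from lists written with earlier results of these data known, and their counts stand beside 27% of all genes tested rising and 24.8% falling with TM in WT neurons and 25% and 27.7% in WT astrocytes. Of 22 genes of the import machinery, 4 rose and 4 fell with TM in WT neurons (median 0.02), led by the rises of Timm21 (1.34 ± 0.16), Gfer (0.71 ± 0.11) and Timm8a1 (1.00 ± 0.17). In WT astrocytes 13 rose and 1 fell (median 0.37), led by the receptor Tomm70a (0.99 ± 0.12), the pore Tomm40 (0.72 ± 0.095) and the inner membrane channel Timm23 (1.10 ± 0.16). The cell type by TM interaction in WT cells was negative for 13 of the 22 and positive for 0 (median -0.49), beside 12.5% and 12.4% of all genes tested. In Perk KO neurons 1 rose and 4 fell, beside 13.1% and 10.8% of all genes tested. In Perk KO astrocytes 0 were called (median 0.10), where 5.55% of genes tested rose and 4.6% fell. Under TM, 15 of the 22 were lower and 2 higher in Perk KO than in WT astrocytes (median -0.51), beside 31.2% and 32.1% of all genes tested, with Tomm70a at -1.33 ± 0.11, Timm8a1 at -1.58 ± 0.15 and Timm23 at -1.43 ± 0.15.

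Of 9 further cochaperones and scaffold proteins, 4 rose and 2 fell with TM in WT neurons, where the iron-sulfur cochaperone Hscb rose by 1.31 ± 0.16, the disaggregase Clpb by 0.72 ± 0.09, and prohibitin Phb fell by 0.87 on the log2 scale. In WT astrocytes 4 rose and 0 fell, led by Grpel1 (0.73 ± 0.097) and Grpel2 (0.84 ± 0.13), the nucleotide exchange factors of Hspa9, and Clpb (0.54 ± 0.12). Grpel2 was lower in Perk KO than in WT cells in TM-treated neurons (-1.12 ± 0.1), TM-treated astrocytes (-1.24 ± 0.1) and control astrocytes (-0.78 ± 0.16). Of 14 other mitochondrial proteases and peptidases, 4 rose and 5 fell in WT neurons, and 5 rose and 4 fell in WT astrocytes, beside 27% and 24.8% of all genes tested in WT neurons and 25% and 27.7% in WT astrocytes. The rhomboid protease Parl rose in both (0.74 ± 0.087 and 0.78 ± 0.11), and in TM-treated cells it was lower in Perk KO than in WT neurons (-0.74 ± 0.15) and astrocytes (-1.12 ± 0.1). The stress-activated protease Oma1 fell in WT astrocytes (-0.81 ± 0.14). Of the 14, 0 were called with TM in Perk KO neurons, where 13.1% of genes tested rose and 10.8% fell. In Perk KO astrocytes 0 were called as well, where 5.55% rose and 4.6% fell.

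Of 19 nuclear-encoded genes that report mitochondrial mass, 3 rose and 13 fell with TM in WT neurons (median -0.52), beside 27% and 24.8% of all genes tested. The falls included the Krebs cycle gene Idh3a (-1.04 ± 0.075) and Ndufs1 of complex I (-0.71 ± 0.075). In WT astrocytes 3 rose and 4 fell (median 0.00), beside 25% and 27.7% of all genes tested. The rises included Tfam (0.96 ± 0.14) and Twnk (0.90 ± 0.11), which act on mitochondrial DNA. Without Perk, 0 rose and 4 fell in neurons, beside 13.1% and 10.8% of all genes tested. In astrocytes without Perk 0 were called, where 5.55% of genes tested rose and 4.6% fell. Of 13 mitochondrially encoded genes, 0 rose and 2 fell in WT neurons and 0 were called in WT astrocytes. Shares of counts given here are those of all genes on the mitochondrial chromosome, not only of these 13. In WT neurons the share was between 2.89% and 4.38% with TM and between 3.26% and 4.05% in controls. With TM in Perk KO cells, 0 of the 13 rose and 1 fell in neurons and 2 rose and 0 fell in astrocytes. Between genotypes, 10 of the 13 were higher in control Perk KO neurons (5.57% to 5.92% of counts, against 3.26% to 4.05% in WT), beside 12.2% of all genes tested. In TM-treated Perk KO neurons 2 were higher, beside 20.7% of all genes tested. In TM-treated Perk KO astrocytes 11 were higher (1.98% to 2.78%, against 0.879% to 1.67% in WT), beside 32.1%. In control Perk KO astrocytes 0 were higher, beside 4.71%. Of the 13, 0 were lower in any of these, beside 9.16%, 19.4%, 31.2% and 10.2% of all genes tested in the same order. The part of the mitochondrially encoded genes in the genotype differences of the 9 genes was not tested.

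Of 12 cytosolic heat shock genes, 5 rose and 1 fell with TM in Perk KO neurons (median 0.37), led by Hspa1b (1.91 ± 0.13) and Hspa1a (1.51 ± 0.19). Of all genes tested 13.1% rose and 10.8% fell there. In WT neurons 3 rose and 8 fell (median -0.38), beside 27% and 24.8% of all genes tested. Hsph1 (-0.86 ± 0.08) was among the falls. The genotype by TM interaction in neurons was positive for 7 of the 12 and negative for 0 (median 0.80), beside 14.5% and 15.4% of all genes tested. In astrocytes 2 rose and 0 fell in Perk KO cells, beside 5.55% and 4.6% of all genes tested. In WT astrocytes 3 rose and 3 fell, beside 25% and 27.7%. The interaction in astrocytes was positive for 2 and negative for 2 (median 0.17), beside 19.8% and 14.6% of all genes tested.

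At an adjusted p under 0.05, the authors' deposited tables of the 8 pairwise comparisons within a cell type gave as many of the 9 genes, in the same directions, as edgeR in 5 of the 8. In the authors' deposited table for TM in WT neurons 5 genes were higher, without Clpp (adjusted p = 0.0703). There 29.9% of all listed genes had an adjusted p under 0.05, in either direction. In the authors' deposited table for TM in Perk KO neurons 3 were higher and Yme1l1 was lower (-0.63, adjusted p = 0.0491). The share of all listed genes there, in either direction, was 14.1%. In that for TM in Perk KO astrocytes 1 of the 9 genes, Hspa9, was higher (adjusted p = 0.0181), beside 7.49% of all listed genes in either direction.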

How the data were processed

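RNA from 24 libraries in 8 groups of 3 was sequenced as paired-end reads from an unstranded kit. Per the submitters' processing notes, the authors used fastp, HISAT2, featureCounts and DESeq2 on GRCm38.p6. Their versions are not given in the sources used here. Deposited tables hold raw read counts per gene, the authors' log2 fold changes and the authors' adjusted p-values; other deposited columns were not used. Each table holds 2 groups, and the 8 tables were joined by gene. Counts of a library that stood in more than 1 table differed in 0 cells, and a gene absent from 1 of a library's tables had at most 1 count.

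A gene was kept for testing at a mean count of 10 or more. The test was that of edgeR 4.0.16, run under R 4.3.3 (TMM normalisation, quasi-likelihood F test, Benjamini-Hochberg adjustment over all genes tested), on 6 libraries for a pair and 12 or 24 for an interaction, and a gene was called at an adjusted p under 0.05. It was first run on simulated counts that held no replicate pairing and no GC shifts. The outcome is not given here and does not bear on those features. Standard errors were derived from the F statistic. Tables were made with Python 3.11.15, pandas 2.3.3 and numpy 2.4.6. The alternatives were no filter, DESeq2 1.42.0 and its size factors, the replicate number as a block, a correction for transcript GC content in 20 bins (99.9% of genes tested had a value), both together, all libraries of a cell type or all 24 in 1 fit, and each library left out.

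Replicate numbers were taken to pair the libraries where all 3 correlations of same-numbered deviations passed 0.1. This held in the astrocyte comparisons (0.270 to 0.607) and between the genotypes of neurons (0.146 to 0.447), and not for TM in neurons or between cell types. The pairing comes from the data, not from the labels.

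The rule for named genes took all 9 genes in every comparison, up to 3 called genes of smallest p in a list, 7 counterparts and regulators (Hspa5, Hsp90b1, Hspa8, Hsp90ab1, Atf4, Atf5 and Ddit3), and the 3 most similar genes averaging 100 counts or more. The members and lists were chosen with earlier results of these data known.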

Additional observations from a re-analysis of the deposited data

Results flagged for a closer look

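The response to TM differed between genotypes in neurons, by a direct test of the interaction (edgeR, adjusted over all genes), for Dnaja3 (-0.99, adjusted p = 9.02e-05), Hspa9 (-0.81, 0.000116) and Lonp1 (-0.73, 0.00227). In astrocytes the same test differed for Lonp1 (-1.09, adjusted p = 0.00152), Dnaja3 (-1.03, 0.000228), Hspd1 (-0.997, 0.000234), Hspa9 (-0.76, 0.026) and Yme1l1 (-0.66, 0.00102). All 8 values are log2 differences, Perk KO minus WT. Hspa9 in astrocytes was not called in several fits with a library left out (adjusted p = 0.0504 to 0.0661).

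The response to TM differed between neurons and astrocytes in WT cells for Hspd1 (-1.31, adjusted p = 5.44e-05), Trap1 (-0.52, 0.00965) and Dnaja3 (-0.38, 0.0486), neurons minus astrocytes. Dnaja3 was not called with no filter (0.542), with DESeq2's size factors (0.0705) or in most fits with a library left out (0.0508 to 0.251). Trap1 was not called with no filter (0.213). Hspd1 was also picked out by the interaction of cell type, genotype and TM (1.02, adjusted p = 0.000953).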

How the results depend on the processing

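Over 2088 values of a single gene under an alternative, 1948 kept their direction and side of the threshold, 68 passed it newly, 72 no longer passed it, and 0 reversed. For TM in Perk KO astrocytes the number of the 9 genes called was 0 and became 1 with no filter, 1 with DESeq2, 5 with the replicate block and 6 with GC correction and block (0 to 1 with a library left out). Between genotypes of TM-treated neurons it was 3, and 5 with GC correction and block. Between genotypes of control neurons it was 2, and 1 with GC correction (0 to 4 with a library left out), and of control astrocytes 4 (0 to 4). Between WT control neurons and astrocytes it was 5, and 3 with GC correction, alone or with the block. For cell type by TM in WT cells it was 3, with 1 for no filter and 6 for GC correction and block (2 to 5). In Perk KO cells it was 0, and 1 with no filter, with the block, with GC correction and with both (0 to 1). For the 3-way interaction it was 1, and 2 with DESeq2, its size factors, the block or GC correction, and 4 with GC correction and block (1 to 3).

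Over all genes, 3370 were called between genotypes of control neurons (257 to 5414 with a library left out) and 2260 between those of control astrocytes (50 to 4138; 5730 with the block). For TM it was 3858 in Perk KO neurons (1972 to 5844) and 1539 in Perk KO astrocytes (807 to 1321; 4288 with the block). For cell type by TM in Perk KO cells it was 1875 (1010 to 3383; 3115 with GC correction and block), and for the 3-way interaction 878 (623 to 1149; 1531 with DESeq2, 1842 with the block, 2501 with GC correction and block). Without the filter, positive calls made up 69.1% of calls for cell type by TM in WT cells, against 49.7% with it, and 25.4% for the 3-way interaction, against 37.8%. The cause of these shifts was not tested.

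Where replicate numbers did not pair the libraries, the block called Hspe1 for cell type by TM in WT cells (-0.46, adjusted p = 0.0357) and Lonp1 in Perk KO cells (0.42, 0.0287), Trap1 in the 3-way interaction (0.49, 0.0188), and no longer called Clpx between WT control cell types (-0.32, 0.0678). In the paired comparisons it changed no calls other than those given with the results. With 3 libraries a group, some small steps lie near what the spread allows. Examples are those of Clpp and Hspe1 with TM in WT neurons and of Clpx between WT control cell types. The rises of Clpp and Hspe1 with TM in WT astrocytes were called under each alternative.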
